A study of Bos taurus with 3 samples.

Results

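Immediate-early and heat-shock genes were followed in the rumen cells of newborn calves. The list held 39 genes chosen by name, and 37 of them had a row among the 27270 genes of the count tables; IER5 and RHOB were not analysed here. Of the 37 genes, 17 encode early transcription factors, 12 encode feedback and stress regulators and 8 encode chaperones. The members were picked with earlier results of these data in view, but no measured value chose them.

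The study compared single-cell transcriptomes of the rumen between newborn and adult dairy cattle, with the adult cells not analysed here. The 3 newborn animals were calves sampled 1 day after birth, and each gave 1 library from the ventral rumen sac. The outer muscle was removed, the mucosa was dissociated with EDTA, trypsin and then a mixture of collagenases, dispase, hyaluronidase and DNase in a warm water bath, and dead cells were depleted where viability was low. Cells were captured with a 3′ droplet kit that tags each captured transcript with a unique molecular identifier (UMI).

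Immediate-early genes are transcribed within minutes of a stimulus from factors already present in the cell, without new protein synthesis. Their products include the AP-1 subunits of the FOS and JUN families and zinc-finger factors such as EGR1, followed by feedback regulators such as the MAP kinase phosphatase DUSP1 and the NF-κB inhibitor NFKBIA. Heat-shock genes are driven by HSF1 when unfolded protein accumulates and encode chaperones, among them the inducible HSP70 HSPA1A and the constitutive HSPA8. Both programmes are known to be switched on by warm enzymatic dissociation of solid tissue, and these libraries held no undissociated control, so levels in the living rumen and levels gained after sampling cannot be told apart.

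Of 31228 barcodes, 26215 had 500 to 4000 detected genes, and 24042 cells were kept after limits on UMIs, mitochondrial share and doublets. Calves 1, 2 and 3 gave 4695, 9746 and 9601 kept cells with medians of 10156, 6472.5 and 7422 UMIs and of 5.35%, 5.60% and 5.25% mitochondrial UMIs. Pairs of libraries shared between 11 and 25 cell barcodes, at most 0.405% of the cells of a library. Cells were clustered with the 37 members and the mitochondrial genes set aside, and clusters were named from marker lists as epithelial-like, endothelial-like, stromal-like and immune-like, written below without the ending. The 11 epithelial markers together reached 179 to 219 UMIs per 10000 in epithelial cells of the 3 calves, 6.10 to 27.3 in endothelial and 11.6 to 24.8 in immune cells. In stromal cells the same list ran from 13.6 to 101, the highest value being that of calf 1, which gave 22 stromal cells. Calf 1 gave 10 immune cells, too few to be summed, so immune values rest on calves 2 and 3.

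The 37 genes took 1.11%, 1.41% and 1.99% of all UMIs in the kept cells of calves 1, 2 and 3, a mean of 1.50% ± 0.447 (SD, n = 3 calves). Early transcription factors took 0.486%, 0.701% and 0.884%, feedback and stress regulators 0.220%, 0.279% and 0.356%, and chaperones 0.407%, 0.429% and 0.752%. Each group was lowest in calf 1 and highest in calf 3. The exact 95% Poisson intervals of these shares did not overlap between calves. Such intervals cover counting error only, and with 1 library per calf a difference between calves has no replicate check.

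By share of the members' own UMIs, early transcription factors held 45.9% ± 3.32, feedback and stress regulators 19.1% ± 1.11 and chaperones 34.9% ± 3.90 (SD, n = 3 calves). JUN, the main AP-1 partner of FOS, held 17.3% ± 2.18 of the members' UMIs, followed by the cytosolic HSP90 HSP90AA1 with 10.3% ± 1.81, HSPA8 with 7.07% ± 1.56, the small heat-shock protein HSPB1 with 6.80% ± 0.763 and JUNB with 6.26% ± 1.22. The 5 largest members of each calf together held 49.4%, 48.7% and 48.7% in calves 1, 2 and 3. At the other end, SOCS3, FOSL1 and KLF2 each held at most 0.0300%. These 3′ UMIs count transcripts and were not divided by gene length.

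**Figure D1:**
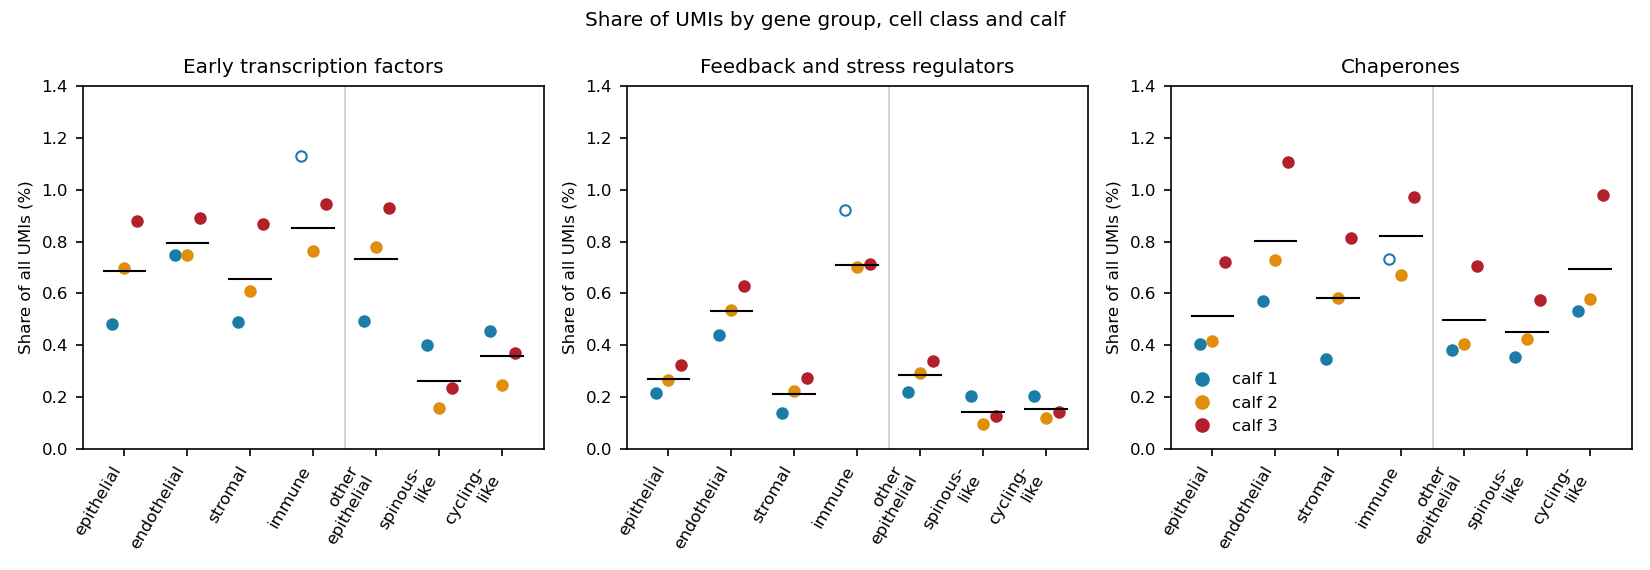
Share of all UMIs (%, vertical axis) taken by early transcription factors, feedback and stress regulators and chaperones in 4 cell classes and, right of the grey line, in 3 states of the epithelial cells. Each point is the summed cells of 1 calf, the black bar is the mean over calves, and the open point is the 10 immune cells of calf 1, left out of the mean; the mean share of early factors was 0.734% in other epithelial and 0.264% in spinous-like cells, and that of chaperones 0.497% and 0.450%.

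By class, the 37 genes took 2.38% ± 0.349 of the UMIs of immune cells (SD, n = 2 calves), 2.13% ± 0.448 of those of endothelial cells, 1.47% ± 0.418 of those of epithelial cells and 1.45% ± 0.494 of those of stromal cells (n = 3). The classes parted most in the regulators, which took 0.270% in epithelial, 0.213% in stromal, 0.534% in endothelial and 0.708% in immune cells, whereas early factors lay between 0.656% and 0.853%. The immune class was mixed. Its largest cluster, led by BLA-DQB and BOLA-DRA, had regulator shares of 0.804% and 0.823% in calves 2 and 3. A second immune cluster, with UBD, CD52 and CD3E among its leading genes, had 0.352% and 0.490%. Within the epithelium chaperones held 32.6% ± 4.59 of the members' UMIs in most cells, 53.7% ± 14.6 in spinous-like and 57.1% ± 11.1 in cycling-like cells.

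Among the early transcription factors of epithelial cells, JUN was the most abundant by UMIs, with 17.1, 27.8 and 33.7 UMIs per 10000 in calves 1, 2 and 3. FOS, the inducible AP-1 subunit, reached 5.74, 6.33 and 7.88, EGR1 reached 1.76, 2.25 and 3.87, and ATF3, a stress-induced member of the ATF family, reached 2.57, 4.53 and 6.32. All of these were lowest in calf 1 and highest in calf 3, and of these 4 genes FOS spread least. Of the feedback regulators, DUSP1 reached 4.48, 3.31 and 6.76, so that calf 2 was lowest. IER3, an early gene that limits cell death, went the other way from most members, with 6.92, 6.53 and 5.84. These orders of calves are those of unscaled levels and can differ with scaling by the trimmed mean of M-values (TMM). On the TMM scale calf 3 was highest for 10 of 15 early factors and 5 of 11 regulators in epithelial cells, against 30.2% of all genes.

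Among the chaperones, HSPA1A had 4.25 UMIs per 10000 in calf 1 (95% interval 4.19 to 4.30), 7.89 in calf 2 (7.83 to 7.96) and 16.0 in calf 3 (15.9 to 16.1). DNAJB1, its inducible HSP40 partner, reached 0.688, 1.13 and 2.66 in the same order. HSPA8, which is expressed without stress, reached 9.33, 7.43 and 14.5. HSPA1A, DNAJB1 and HSPB1 were lowest in calf 1, whereas calf 2 was lowest for HSPA8, HSP90AA1, HSPA5, HSPH1 and DNAJA1. These levels are not TMM-scaled. In the fit of classes the epithelial sums of calves 1, 2 and 3 had TMM factors of 0.832, 0.724 and 0.883. Dividing by them raises calf 2 most. The lowest calf can therefore change for chaperones with close levels in calves 1 and 2, such as HSP90AA1 and HSPH1.

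**Figure D2:**
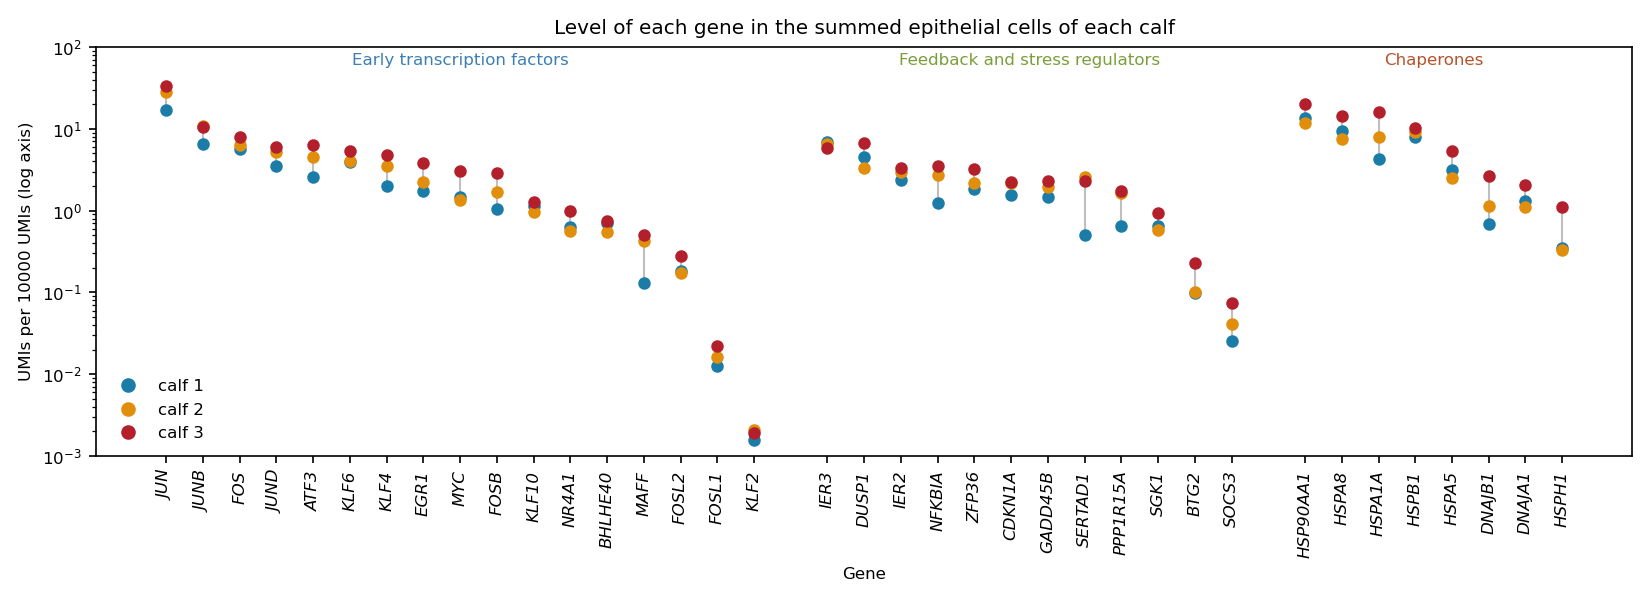
Level of each of the 37 genes in the summed epithelial cells of calves 1, 2 and 3, in UMIs per 10000 on a log axis, grouped by role and ordered by mean level. On these unscaled levels red points (calf 3) lie highest for all 8 chaperones, whereas IER3 has the opposite order of calves.

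With a mean level of at least 0.1 UMIs per 10000, 34 of the 37 members could be compared between calves in epithelial cells; FOSL1, KLF2 and SOCS3 were below it. Calf 3 had the highest level for 31 of the 34, against 47.3% of all 6516 genes at that level. The exceptions were JUNB and SERTAD1, a transcriptional co-regulator of the cell cycle, which were highest in calf 2, and IER3, highest in calf 1. Scaling the sums by the trimmed mean of M-values (TMM), an alternative chosen after seeing the data, left calf 3 highest for 22 of the 34 members, against 30.2% of all genes.

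All 8 chaperones were highest in calf 3 in epithelial, in endothelial and in stromal cells, where 47.3%, 45.9% and 42.9% of all genes were. With TMM scaling this held for 7 of the 8 in epithelial and in endothelial cells and for 8 of 8 in stromal cells, against 30.2%, 35.7% and 37.1% of all genes. Of the early factors, calf 3 was highest for 14 of 15 in epithelial, 11 of 16 in endothelial and 13 of 15 in stromal cells, and with TMM scaling for 10, 9 and 12 of them. FOS and EGR1 were among the endothelial exceptions. FOS reached 9.24, 5.06 and 6.25 UMIs per 10000 in the endothelial cells of calves 1, 2 and 3, and EGR1 2.48, 1.39 and 1.69, so that calf 1, with 77 endothelial cells, was highest for both. The endothelial and stromal cells of calf 3 had median mitochondrial shares of 0.944% and 3.12%, against 2.99% to 3.02% and 6.46% to 7.64% in the other calves, and the part of this in the differences between calves was not tested.

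Beyond 2-fold, 4 members were higher in calf 2 than in calf 1, where 1.90% of all genes were (MAFF, PPP1R15A, NFKBIA and SERTAD1). SERTAD1 had 0.510 UMIs per 10000 in calf 1 and 2.59 in calf 2. Between calf 3 and calf 1, 13 members were beyond 2-fold higher in calf 3, against 3.74% of all genes. They were FOSB, ATF3, MAFF, EGR1, KLF4 and MYC of the early factors, BTG2, PPP1R15A, NFKBIA and SERTAD1 of the regulators, and HSPA1A, DNAJB1 and HSPH1 of the chaperones. Between calf 3 and calf 2, MYC, DUSP1, BTG2, HSPA1A, DNAJB1, HSPA5 and HSPH1 were beyond 2-fold higher in calf 3, 7 members against 7.40% of all genes. No member was beyond 2-fold lower in any of these 3 pairs, where 6.00%, 3.67% and 2.29% of all genes were. With TMM scaling 6, 12 and 1 members were beyond 2-fold higher in the 3 pairs, in the order given. The share of all genes on that scale was not counted. These are values of 1 library each and were not tested.

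After each epithelial cell had been thinned at random to 2000 UMIs, JUN was found in 85.5% ± 4.57 of cells, HSPA8 in 78.9% ± 9.53, HSPA1A in 65.6% ± 15.7, FOS in 56.8% ± 7.02, DUSP1 in 46.6% ± 9.52, ATF3 in 40.2% ± 12.2, EGR1 in 33.7% ± 10.1 and DNAJB1 in 21.6% ± 11.7 (SD, n = 3 calves). HSPA1A was found in 50.8%, 63.7% and 82.1% of thinned cells of calves 1, 2 and 3, and in 89.6%, 89.1% and 96.6% of all epithelial cells before thinning. In each calf 138 to 224 epithelial cells were too shallow to be thinned. The genes named here were found in every class, so free RNA was gauged by the keratin gene KRT5. It was found in 33.8% ± 10.3 of thinned endothelial cells (n = 3) against 97.7% ± 1.54 of thinned epithelial cells. Median depths before thinning were 3603 to 4461.5 UMIs in endothelial and 6684 to 10263.5 in epithelial cells. In thinned stromal and immune cells KRT5 was found in 39.2% ± 6.97 and 30.7% ± 8.22 (n = 2 calves each). In calf 1, left out of that stromal mean, it was found in 75% of 16 thinned stromal cells. Of the stromal cells of calves 2 and 3, 180 and 174 were too shallow to be thinned, and 163 and 239 remained. Shares of members in endothelial, stromal and immune cells can include free RNA from epithelial cells, and its part in the results was not tested.

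Differences between classes were tested with edgeR's quasi-likelihood test on UMIs summed per calf and class, with the calf as a block and p-values adjusted over all 11517 genes. Of the 37 members 36 were tested, FOSL1 being too low. All class comparisons share the epithelial sums, and the classes were fitted together. The p-values describe the spread of class differences over these calves, not the spread between calves. For immune cells, with 2 calves, that spread was gauged largely with the sums of the other classes. The number of calves that show a direction was counted on TMM-scaled levels, whereas levels per 10000 UMIs are unscaled. In endothelial cells 13 members were higher than in epithelial cells and 8 lower, where 23.3% and 23.1% of all genes were. By role, 7 of the 12 regulators were higher and 1 lower, 4 of the 16 early factors were higher and 6 lower, and of the 8 chaperones 2 were higher and 1 lower. The members called lower, and the early factors and chaperones called higher, were near the shares of all genes, and differences between roles were not tested. The members' median log2 difference was 0.30, against -0.02 over all genes.

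KLF2, the flow-induced factor of vascular endothelium, had 12, 34 and 70 UMIs in the endothelial cells of calves 1, 2 and 3 and 8, 14 and 13 in their far more numerous epithelial cells. Its log2 difference was 6.29 ± 0.49 (SE, adjusted p = 5.5e-09, higher in 3 of 3 calves), and the ratio of pooled levels was 98.8 with a counting interval of 67.2 to 149. NFKBIA reached 7.45, 10.3 and 11.9 UMIs per 10000 in endothelial cells against 1.25, 2.73 and 3.48 in epithelial cells (log2 difference 1.70 ± 0.23, adjusted p = 5.3e-06). DUSP1 reached 13.5, 15.5 and 19.1 there (1.36 ± 0.22, adjusted p = 5.4e-05). These endothelial values lay above the epithelial values of every calf.

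HSPB1, which protects the actin cytoskeleton, reached 23.4, 29.6 and 44.3 UMIs per 10000 in endothelial against 8.03, 9.23 and 10.2 in epithelial cells (log2 difference 1.38 ± 0.26, adjusted p = 0.00039, 3 of 3 calves). The kinase SGK1 was higher by 1.27 ± 0.20 (adjusted p = 3.0e-05), KLF6 by 0.87 ± 0.20 (adjusted p = 0.0012), GADD45B by 0.85 ± 0.22 (adjusted p = 0.0041) and NR4A1 by 0.73 ± 0.21 (adjusted p = 0.0071). Among the members lower in endothelial cells, IER3 had 1.66, 2.08 and 1.90 UMIs per 10000 (-2.17 ± 0.19, adjusted p = 3.0e-08). It was followed by FOSL2 (-1.29 ± 0.29), MYC (-1.08 ± 0.21), ATF3 (-1.04 ± 0.21), FOSB (-1.01 ± 0.30), EGR1 (-0.86 ± 0.31), KLF4 (-0.84 ± 0.19) and the endoplasmic reticulum HSP70 HSPA5 (-0.59 ± 0.19), with edgeR adjusted p between 0.000265 and 0.0379. EGR1 was lower in 2 of 3 calves only, and the others in 3 of 3. The EGR1 call was lost in 6 of 12 alternatives, with an edgeR or DESeq2 adjusted p of up to 0.222. Among these 6 were DESeq2, totals in place of TMM and the fits without calf 2 or calf 3. The call of HSPA5 was lost in 4 of 12, those of NR4A1 and FOSB in 3 of 12 each, and that of ATF3 in 1.

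The class differences depend on the scaling. Epithelial sums had TMM factors of 0.724 to 0.883 and endothelial sums of 1.01 to 1.12, and with totals in place of TMM the median of all genes moved from -0.02 to 0.37. On that scale 21 members were higher in endothelial cells and 5 lower, and no called member changed direction. Without calf 2 the number higher was 8, and without calf 3 the number lower was 5.

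In immune cells 17 members were higher than in epithelial cells and 5 lower, against 22.1% and 24.3% of all genes. NFKBIA reached 21.5 and 20.2 UMIs per 10000 in the immune cells of calves 2 and 3 (log2 difference 2.51 ± 0.26, adjusted p = 2.4e-07). SGK1 reached 4.79 and 4.91 (2.44 ± 0.23, adjusted p = 7.8e-08). NR4A1, the orphan receptor induced by antigen receptor signalling, reached 2.99 and 5.03 against 0.563 and 0.990 in epithelial cells (2.03 ± 0.24, adjusted p = 1.4e-06). All of these were higher in both calves. BHLHE40 (1.59 ± 0.27), BTG2 (1.32 ± 0.29), HSPH1 (1.09 ± 0.27), DNAJB1 (0.95 ± 0.21) and ZFP36 (0.91 ± 0.22) completed the 8 largest, with edgeR adjusted p between 0.00012 and 0.0027.

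Of the 8 chaperones 5 were higher in immune cells, HSPH1, DNAJB1, DNAJA1, HSPA5 and HSPA8, and HSPB1 was lower. HSPB1 had 9.23 and 6.32 UMIs per 10000 in the immune cells of calves 2 and 3 against 9.23 and 10.2 in epithelial cells (-0.85 ± 0.31, adjusted p = 0.0337), so that the unscaled levels of calf 2 were equal and its direction there came with TMM scaling. This call was lost in 6 of 12 alternatives, among them DESeq2 and totals in place of TMM, with an edgeR or DESeq2 adjusted p of up to 0.333, and that of HSPA8 in 4 of 12. The 12 include the fits without calf 2 and without calf 3, each with 1 immune library. The other lower members were MYC (-1.59 ± 0.26), KLF4 (-1.26 ± 0.22), EGR1 (-1.18 ± 0.37) and SOCS3, with edgeR adjusted p between 5.4e-05 and 0.018. SOCS3, an inhibitor of cytokine receptor signalling, had 3 UMIs in the immune cells of calves 2 and 3 together, 0.131 times its epithelial level with a counting interval of 0.0270 to 0.385. Calf 3 gave 703 of the immune cells used and calf 2 gave 73. The fits without calf 2 or without calf 3 each left 1 immune library, so their calls are not given. In these fits the log2 difference was 2.49 and 2.72 for NFKBIA, 2.33 and 2.78 for SGK1, and 2.22 and 1.95 for NR4A1.

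In stromal cells the direction was mostly downward: 3 members were higher than in epithelial cells and 16 lower, against 18.9% and 18.5% of all genes. BHLHE40 had the largest fall (-2.31 ± 0.33, adjusted p = 2.3e-05), followed by the cell cycle inhibitor CDKN1A (-1.89 ± 0.25), ATF3 (-1.85 ± 0.23), KLF4 (-1.79 ± 0.21), MYC (-1.69 ± 0.23), IER3 (-1.59 ± 0.20), DUSP1 (-1.13 ± 0.24) and HSPA8 (-1.13 ± 0.19), with edgeR adjusted p between 1.5e-06 and 0.0008. All 16 were lower in 3 of 3 calves. ATF3 reached 0.499, 2.00 and 2.36 UMIs per 10000 in stromal cells, below the epithelial value of the same calf each time. The higher members were NR4A1 (0.64 ± 0.23, 3 of 3 calves), MAFF (0.70 ± 0.27, 2 of 3 calves) and KLF2, which rested on 0, 2 and 5 UMIs and a pooled ratio of 19.7 with a counting interval of 7.40 to 45.1 (edgeR adjusted p of 0.0320, 0.0470 and 0.00225). The calls of MAFF and NR4A1 were lost in 6 and 5 of 12 alternatives.

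With totals in place of TMM the median of all genes moved from -0.08 to 0.37, and 7 members were higher and 8 lower. Without calf 2 there were 1 and 9, and without calf 3 the number higher was 1. The stromal cells were shallow, with medians of 1935 to 2525.5 UMIs. They were also mixed, and the tests used class sums only. In the cluster led by COL1A2, COL1A1 and MFAP5, chaperones took 0.281% and 0.384% of UMIs in calves 2 and 3. In the cluster led by ACTA2 they took 0.630% and 0.952%. Early factors took 0.394% and 1.02% in the former and 0.780% and 0.923% in the latter, so their order differed between calves.

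**Figure D3:**
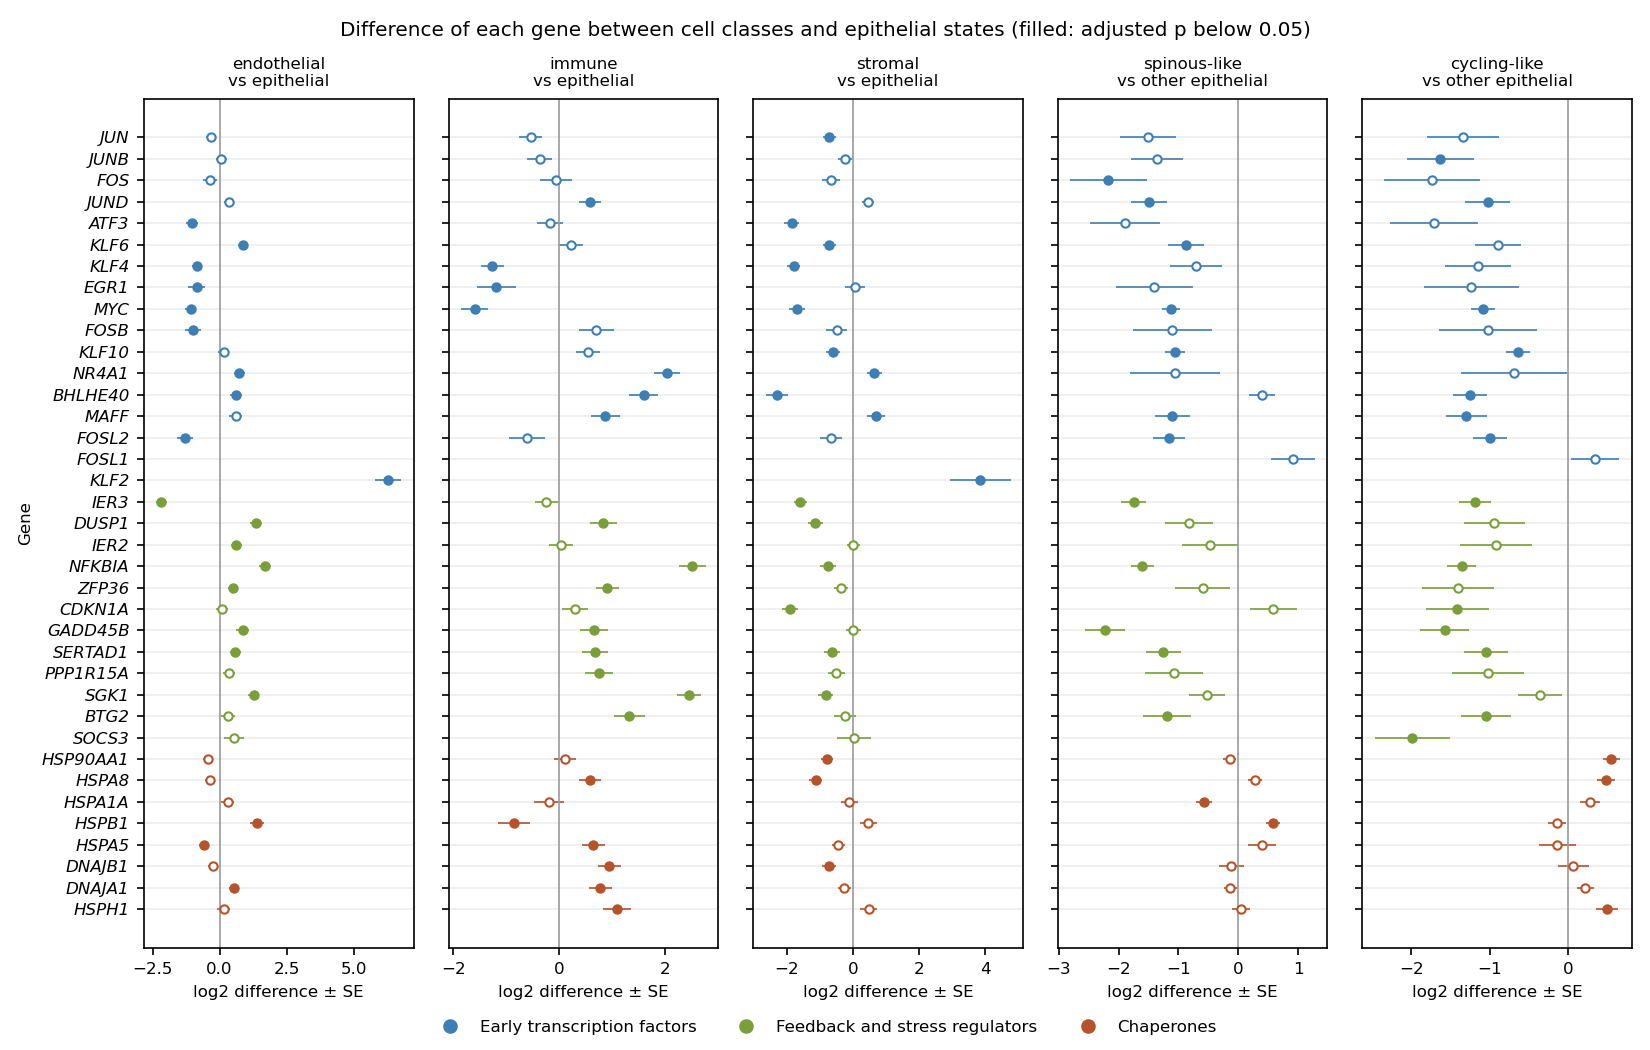
log2 difference (± SE) of each gene between the named class or state and its comparison, from edgeR on sums per calf; filled points have an adjusted p below 0.05 and colours give the role. Genes with fewer than 5 UMIs in the first class are not drawn, and horizontal scales differ between panels; in cycling-like cells the 3 called chaperones lie to the right of 0 and all called early factors and regulators to the left.

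Within the epithelium, clusters of each calf with spinous markers (KRTDAP, SPINK5 and others) and with cycling markers (TOP2A, MKI67 and others) were compared with the other epithelial cells of the same calf. There were 171, 414 and 90 spinous-like and 585, 326 and 362 cycling-like cells in calves 1, 2 and 3. Of the members 36 were tested among 10147 genes, KLF2 being too low. In spinous-like cells 1 member was higher and 14 lower, against 22.6% and 22.0% of all genes. Their median log2 difference was -1.06, against -0.04 over all genes.

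The fall in spinous-like cells was in the early factors and regulators. Early factors took 0.402%, 0.156% and 0.234% of UMIs in the spinous-like cells of calves 1, 2 and 3, against 0.494%, 0.779% and 0.929% in the other epithelial cells, so the gap was narrow in calf 1 and wide in calves 2 and 3. Of the 16 early factors 7 were lower, of the 12 regulators 6, and of the 8 chaperones 1. FOS reached 3.68, 0.530 and 1.49 UMIs per 10000 against 6.01, 7.18 and 8.35 (log2 difference -2.17 ± 0.64, adjusted p = 0.045, 3 of 3 calves).

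GADD45B (-2.23 ± 0.34), IER3 (-1.75 ± 0.21), NFKBIA (-1.60 ± 0.20), JUND (-1.49 ± 0.29), SERTAD1 (-1.25 ± 0.29) and BTG2 (-1.19 ± 0.40) were also among the 8 largest falls, with edgeR adjusted p between 0.00011 and 0.034. SOCS3 had 0, 1 and 0 UMIs in spinous-like cells against 111, 273 and 505 in the others. Its pooled ratio was 0.0210, with a counting interval of 0.000531 to 0.117. HSPA1A was lower (-0.57 ± 0.13, adjusted p = 0.0043) and HSPB1 higher (0.59 ± 0.12, adjusted p = 0.0020), each in 3 of 3 calves, but the call of HSPA1A was lost in 5 of 12 alternatives and that of FOS in 3. HSPB1 reached 8.84, 14.1 and 12.6 UMIs per 10000 against 8.12, 8.74 and 10.2.

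In cycling-like cells 3 members were higher and 14 lower, where 14.2% and 14.6% of all genes were. The 3 higher members were chaperones, and the 14 lower ones were 7 of the 16 early factors and 7 of the 12 regulators. HSP90AA1 reached 19.9, 19.3 and 33.2 UMIs per 10000 against 12.4, 11.5 and 19.5 in the other cells of calves 1, 2 and 3 (log2 difference 0.55 ± 0.11, adjusted p = 0.0037). HSPA8 reached 12.5, 12.7 and 21.5 against 8.74, 6.91 and 14.0 (0.48 ± 0.12, adjusted p = 0.010). HSPH1, the nucleotide exchange factor of HSP70, was higher by 0.49 ± 0.14 (adjusted p = 0.023). Each of the 3 was higher in every calf, but the calls of HSPH1, HSPA8 and HSP90AA1 were lost in 5, 3 and 2 of 12 alternatives.

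The largest falls in cycling-like cells were those of SOCS3 (-1.99 ± 0.48), JUNB (-1.63 ± 0.43), GADD45B (-1.58 ± 0.31), CDKN1A (-1.42 ± 0.40), NFKBIA (-1.36 ± 0.19), MAFF (-1.30 ± 0.26), BHLHE40 (-1.25 ± 0.21) and IER3 (-1.19 ± 0.20), with edgeR adjusted p between 0.00067 and 0.046 and each lower in 3 of 3 calves. SOCS3 rested on 18, 2 and 4 UMIs, and the call of CDKN1A was lost in 5 of 12 alternatives. HSPA1A, with 6.26, 10.5 and 19.8 UMIs per 10000 against 3.90, 8.04 and 15.8, did not pass the test. JUN, with 16.2, 9.51 and 14.0 against 17.5, 31.1 and 35.6, and FOS, with 5.08, 1.30 and 2.95 against 6.01, 7.18 and 8.35, did not pass either.

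Calls within the epithelium rested on which calves entered. In spinous-like cells 2 members were higher and 27 lower without calf 1, 0 and 9 without calf 2, and 2 and 7 without calf 3. Genes called there in either direction numbered 3971, 3423 and 3249 in these fits, against 4525 with all calves. In cycling-like cells 25 members were lower without calf 1, 8 without calf 2 and 4 without calf 3. The chaperone calls fell from 3 to 0 without calf 3 and to 1 without calf 2. Genes called in cycling-like cells in either direction numbered 2993, 2011 and 647 without calf 1, 2 and 3, against 2923 with all calves. Without the calf as a block the members called in cycling-like cells were 0 higher and 4 lower, with 558 genes called in all. Both states also had more UMIs, with medians of 10698.5 to 15040 against 6550.5 to 9767.5 in other epithelial cells, and more mitochondrial UMIs, with medians of 7.37% to 10.1% against 5.12% to 5.55%; the part of depth and of mitochondrial share in these differences was not tested.

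The other genes of these programmes were counted from lists of related genes. Of 37 other early-response genes tested, 17 were higher and 4 lower in endothelial cells and 21 and 5 in immune cells, where 23.3% and 23.1%, and 22.1% and 24.3%, of all genes were. DUSP2, a nuclear phosphatase of haematopoietic cells, was higher by 4.48 ± 0.29 in endothelial and by 7.57 ± 0.33 in immune cells (edgeR adjusted p of 5.7e-10 and 4.9e-12), and TNFAIP3, an inhibitor of NF-κB, by 2.05 ± 0.22 and 4.32 ± 0.25. In stromal cells 8 were higher and 13 lower, against 18.9% and 18.5% of all genes. In spinous-like cells 7 of 31 were higher, which is the 22.6% of all genes, among them PHLDA1 (2.28 ± 0.31) and the kinase PIM1 (1.76 ± 0.19), and 10 lower, among them IRF1 (-3.45 ± 0.43) and CCN2 (-3.07 ± 0.63), against 22.0% of all genes. In cycling-like cells 11 of 31 were lower, against 14.6% of all genes, and the others did not pass.

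Of 27 other chaperone and unfolded-protein genes, 6 were higher and 3 lower in cycling-like cells, against 14.2% and 14.6% of all genes. The 5 largest rises were those of STIP1, which couples HSP70 to HSP90 (0.64 ± 0.12), HSPE1 (0.62 ± 0.13), HSP90B1 (0.60 ± 0.16), CACYBP (0.54 ± 0.15) and HSPD1 (0.43 ± 0.12), with edgeR adjusted p between 0.0024 and 0.022, and HSP90AB1 was lower (-0.59 ± 0.09, adjusted p = 0.00092). In spinous-like cells 8 were higher and 4 lower, against 22.6% and 22.0%. There the rises included the endoplasmic reticulum genes HERPUD1 (0.82 ± 0.15), CALR (0.77 ± 0.13) and HSP90B1 (0.77 ± 0.16). The 4 lower genes were DDIT3, HSF2, ATF4 and HSP90AB1, and the member HSPA5 did not pass (0.40 ± 0.23). The counts were 4 higher and 9 lower in endothelial, 9 and 11 in immune and 4 and 6 in stromal cells, where the shares of all genes were those given above. These counts lie close to those shares in several cases, as for the stromal cells, and are descriptions of the list.

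Over single epithelial cells thinned to 2000 UMIs, the summed early factors followed the summed regulators, with a mean Pearson r of 0.73 over the 3 calves (0.66 to 0.77). They followed the summed chaperones far less, with a mean r of 0.14 (0.08 to 0.20). Of all pairs of members, FOS with JUN had the highest mean r, 0.57, followed by JUN with JUNB (0.56), FOS with JUNB (0.51), JUN with ATF3 (0.49) and FOS with ATF3 (0.47). The median over the 136 pairs of early factors was 0.10, over the 28 pairs of chaperones 0.05 and over the 136 mixed pairs 0.01. These are descriptions over cells of the same libraries, which share depth and free RNA, and sparse genes hold r near 0.

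Of the 3014 genes found in at least 5% of thinned cells of every calf, members set aside, those most like the summed early factors included the antiproliferative gene BTG1 (mean r 0.36), EEF1A1 (0.36), TPT1 (0.35), the histone gene H3F3B (0.35), GADD45A (0.34), ENSBTAG00000048781 (0.33), RPS3A (0.31), HES1 (0.29) and TOB1 (0.29). The values differed between calves. EEF1A1, a translation elongation factor, reached 0.15, 0.48 and 0.43 in calves 1, 2 and 3, whereas H3F3B reached 0.35, 0.32 and 0.38.

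The clusters of epithelial cells within a calf, made without the members, spread widely in early factors and little in chaperones. The early-factor share ran from 0.195% to 1.15% over the 11 clusters of calf 1, from 0.156% to 1.30% over the 12 of calf 2 and from 0.234% to 1.86% over the 10 of calf 3, ratios of 5.88, 8.34 and 7.96. The chaperone share ran from 0.329% to 0.585%, from 0.301% to 0.619% and from 0.563% to 0.978%, ratios of 1.78, 2.06 and 1.74. Genes that vary with the members stayed in the clustering, so these ranges are a description.

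In each calf the cluster with the highest early-factor share was led by genes that included CXC chemokines. It was led by CXCL3, GRO1 and IRF1 in calf 1 (315 cells), by GRO1, CXCL2 and CXCL3 in calf 2 (93 cells) and by CXCL2, GRO1 and CCL20 in calf 3 (561 cells). In these clusters FOS reached 16.2, 12.2 and 16.6 and ATF3 9.87, 12.0 and 21.0 UMIs per 10000, whereas HSPA1A was at 2.39, 5.96 and 6.64, below the level of all epithelial cells of the same calf. The highest chaperone share stood elsewhere: in a cycling-like cluster in calf 1 (79 cells) and calf 3 (362 cells), and in calf 2 in a cluster of 126 cells led by TNFRSF6B and CCL20, where HSPA8 reached 18.0. HSPA1A itself peaked in calf 3 at 22.8 UMIs per 10000, in a cluster of 704 cells led by CRYAB, a small heat-shock gene.

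**Figure D4:**
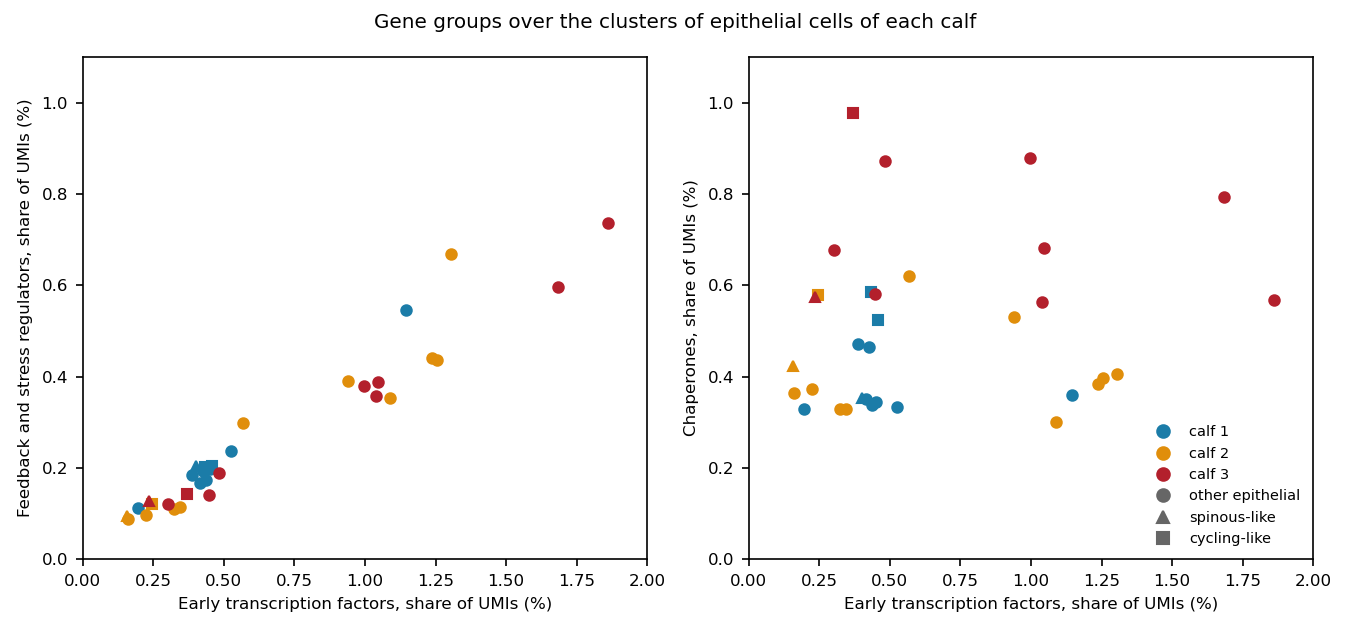
Share of all UMIs (%) of regulators (left) and chaperones (right) against that of early transcription factors, 1 point per cluster of epithelial cells of a calf, with colours for calves and shapes for states. Regulators climb with the early factors in every calf, whereas the clusters of calf 3 with the highest early share (1.86%) and the lowest (0.234%) have nearly equal chaperone shares (0.569% and 0.574%).

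Early factors and mitochondrial share moved in opposite directions over epithelial cells. The cells of each calf were split by mitochondrial share into 4 bins of equal size. They included spinous-like and cycling-like cells, whose median mitochondrial shares were 7.37% to 10.1% against 5.12% to 5.55% in other epithelial cells. The part of cell state in the trend was not tested. From the lowest to the highest bin, early factors went from 0.584% to 0.430% of UMIs in calf 1, from 1.00% to 0.316% in calf 2 and from 1.14% to 0.521% in calf 3. In calf 1 the third bin was the lowest, at 0.426%. Chaperones went from 0.373% to 0.449%, from 0.397% to 0.407% and from 0.591% to 0.806%. The mean r of early factors with mitochondrial share was -0.28 (-0.40 to -0.09) over single cells. For chaperones that r was -0.05 (-0.14 to 0.04), so their rise over the bins was not seen over single cells. With the depth before thinning the mean r was -0.10 (-0.14 to -0.02) for early factors and 0.18 (0.15 to 0.21) for chaperones.

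**Figure D5:**
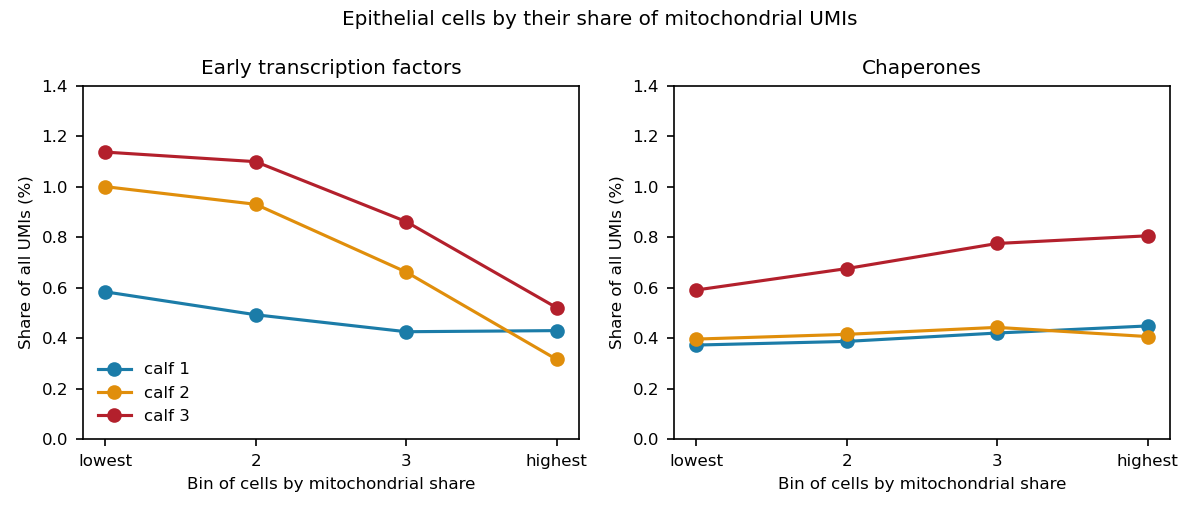
Share of all UMIs (%) of early transcription factors (left) and chaperones (right) in 4 equal bins of the epithelial cells of each calf, from the lowest to the highest mitochondrial share. In calf 2 early factors go from 1.00% to 0.316% while chaperones stay between 0.397% and 0.443%.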

How the data were processed

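The deposited counts are UMIs per gene and barcode, made by the authors with Cell Ranger 3.1.0 per the submitters' processing notes; the annotation release is not given in the sources used here. Barcodes with 500 to 4000 genes, at most 50000 UMIs and at most 40% of UMIs from 13 mitochondrial protein-coding genes were kept, and doublets were removed by a simulated-doublet score in place of the authors' tool. Cells were clustered (leidenalg 0.10.2, scikit-learn 1.9.0, Python 3.11.15) without the members. Counts were summed per calf and class of at least 20 cells and tested with edgeR 4.0.16 (R 4.3.3, quasi-likelihood, TMM) with the calf as block, since the classes of a calf come from 1 library, and Benjamini-Hochberg adjustment over all genes. DESeq2 1.42.0 was an alternative. The fit was tested on simulated data. Levels are UMIs per 10000. The text names, per comparison, the called members with the 8 largest differences each way and 8 key genes in every calf. Members, lists and tests were chosen with earlier results of these data known. Differences between calves rest on 1 library each and were not tested. One of the genes most like the early factors is not reported here.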

Additional observations from a re-analysis of the deposited data

How the results depend on the processing

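Of 780 comparisons of 65 named calls with an alternative, 682 kept the direction and the side of the threshold and 98 kept the direction only; no called member changed direction. Without the replicate block the members called higher and lower were 7 and 5 in endothelial, 8 higher in immune, 1 and 9 in stromal and 0 and 4 in cycling-like cells and 0 higher in spinous-like cells, and 558 genes were called in cycling-like and 2609 in spinous-like cells, against 2923 and 4525 with it. Leaving out 1 calf gave 8 to 12 members higher and 5 to 11 lower in endothelial cells, 7 to 17 and 2 to 7 in immune, 1 to 3 and 9 to 16 in stromal, 0 to 3 and 4 to 25 in cycling-like and 0 to 2 and 7 to 27 in spinous-like cells. The genes called ranged from 2341 to 5414 in immune, from 2644 to 4150 in stromal and from 647 to 2993 in cycling-like cells, each lowest without calf 3. Scaling by total UMIs, chosen after seeing the data, moved the median log2 difference of all genes to 0.37 in endothelial, 0.17 in immune, 0.37 in stromal, 0.15 in cycling-like and -0.25 in spinous-like cells. It gave 21 members higher and 5 lower in endothelial, 3 lower in immune, 7 and 8 in stromal and 5 and 9 in cycling-like cells. With no filter on low counts 1 member was higher in stromal cells, 27 were lower in cycling-like cells, and 2 were higher and 26 lower in spinous-like cells. DESeq2 called 3 members lower in immune and 23 in cycling-like cells. With at most 20% mitochondrial UMIs 2 were higher in spinous-like cells. Beyond 1.5-fold, 12, 25 and 15 members were higher in calf 2 than 1, in calf 3 than 1 and in calf 3 than 2. With TMM scaling 6, 12 and 1 members were beyond 2-fold higher in the same pairs. The shares of all genes at these 2 settings were not counted, so these counts describe the members only. FOS was found in 40.8% of cells thinned to 1000 UMIs and in 73.6% at 5000, where early factors and regulators had r = 0.818. The causes were not tested.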
